A study of Mus musculus with 20 samples.

Results

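The main effect of prenatal inflammation was measured in the brain transcriptome of mouse offspring, as the average of the MIR-minus-control difference under vehicle and under rapamycin. It set 10 libraries from MIR offspring against 10 from control offspring, all 20 libraries of the series, with acute treatment held. MIR stands for maternal inflammatory response. MIR offspring (outbred CD-1 mice) came from dams that received 1 intraperitoneal injection of lipopolysaccharide, a bacterial cell wall component that raises maternal cytokines, at 0.008 mg/kg on day 9 of gestation. Control dams received the same volume of saline. Offspring of both kinds were then given rapamycin, an inhibitor of the growth kinase mTOR, or its vehicle 2 hours before the tissue was frozen, which gave MIR vehicle, MIR rapamycin, control vehicle and control rapamycin groups of 5 libraries each. Poly(A) RNA was sequenced and reads were counted per gene. The labels name the tissue only as brain, and the study's methods name sensory-motor cortex.

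Several facts limit the design as a model of prenatal exposure. The exposure was given to the dam, so the dam is the exposed unit. The study's list of litters names far fewer sequenced litters than there were libraries on each side, so most libraries share a dam with another. The labels do not say which, every p-value treats the 20 mice as independent, and the p-values are too small in that respect. The labels give no ages, and the same list places the sequenced litters among the young ones. The methods speak of 12 MIR and 12 control mice of both sexes, whereas 20 libraries were analysed here and all of them carried Xist, the RNA of the inactive X chromosome, at 499 to 1633 CPM (gene counts scaled to a common library total), with 2 counts from Y-linked genes in total.

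Cells that divide switch on a shared set of genes shortly before and during mitosis, among them cyclins, spindle motors, kinetochore proteins and checkpoint kinases, and switch them off on leaving the cell cycle. In the adult cortex few cells divide, and those that do are mainly glia and their precursors, vascular cells and immune cells. Microglia, the resident macrophages of the brain, and endothelial cells, which line its vessels, both respond to circulating inflammatory signals. In bulk tissue, more cells of a type and more RNA per cell cannot be told apart.

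Depth was 17.8 M to 24.5 M gene counts per library, and 17313 of 48795 annotated genes were abundant enough to test. Libraries 1 to 3 of the control vehicle group stood apart in marker lists of other brain regions or tissues, with a list score being the mean log2 CPM of a list's genes relative to the median library. Control vehicle 1 had a score of 5.04 for striatum, control vehicle 2 a score of 6.06 for cerebellum and of 2.4 for interferon-stimulated genes, and control vehicle 3 a score of 5.58 for choroid plexus. The comparison was therefore also fitted without these 3 libraries, and its counts and values are given beside those with all libraries. A gene was called where its adjusted p (edgeR quasi-likelihood test, Benjamini-Hochberg over all tested genes) was under 0.05 and its log2 fold change was over 0.5 in size.

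MIR brains had 99 genes called higher and 6 called lower than control brains, 0.572% and 0.0347% of the tested genes and 0.606% together. Of the 99, 56 act in cell division or in the DNA synthesis that precedes it, 21 are genes of myeloid and other immune cells, 9 are vascular, and 13 have another or no known role. These roles were assigned by hand once the calls were known, so they describe the calls and support no test. The division genes had the largest median log2 fold change, 2.05, with a range of 0.51 to 4.40. The immune calls had a median of 0.78, with a range of 0.52 to 6.47, and the vascular calls a median of 0.60, with a range of 0.55 to 1.23. Many of these genes had few reads, and 39 of the 105 called genes averaged below 1 CPM. At an unadjusted p under 0.05 in the main effect (edgeR) there were 2288 of the 17313 tested genes. That share is the background for counts at this p in the gene lists below.

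Without control vehicle 1 to 3, 102 genes were higher and 14 lower, 0.567% and 0.0778% of 17993 tested. Both fits shared 66 calls, all 105 of the original calls kept their sign, and 39 of the higher calls no longer passed. By role, 35 of the 56 division genes, 12 of the 21 immune genes, 6 of the 9 vascular genes and all 6 lower genes stayed called. Leaving out a single library moved the number of higher genes between 60 and 161. It was 60 without MIR vehicle 3, 62 without MIR vehicle 4, 60 without MIR rapamycin 1, 63 without MIR rapamycin 3 and 63 without control rapamycin 3, and it was 161 without control vehicle 2. The number of lower genes was 12 without MIR vehicle 2, 10 without control vehicle 1, 22 without control vehicle 2, 13 without control vehicle 4, 14 without control vehicle 5 and 11 without control rapamycin 2. It was 4 without any one of MIR vehicle 3, MIR rapamycin 1 to 4 and control rapamycin 3.

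The promoters of 4 mitotic genes that were higher in MIR brains are shown because these genes moved together and promoters of this class are known for paired motifs, the CCAAT box and the CHR element (TTTGAA). Each line runs 5′ to 3′ on the gene's strand, from 250 bases before to 50 bases after the RefSeq start (GRCm38.p6), with CCAAT and TTTGAA on either strand in capitals (ATTGG and TTCAAA where reversed). The windows lie at chr9:70421505-70421804 on the minus strand for Ccnb2, chr7:80294201-80294500 on the plus strand for Prc1, chr19:37376132-37376431 on the plus strand for Kif11 and chr11:99024140-99024439 on the minus strand for Top2a.
Ccnb2: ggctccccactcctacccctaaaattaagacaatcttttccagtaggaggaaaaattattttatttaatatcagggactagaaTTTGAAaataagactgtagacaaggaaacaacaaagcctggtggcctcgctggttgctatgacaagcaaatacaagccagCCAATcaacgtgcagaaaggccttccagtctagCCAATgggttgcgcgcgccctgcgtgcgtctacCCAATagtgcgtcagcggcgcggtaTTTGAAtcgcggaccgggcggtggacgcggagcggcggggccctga
Prc1: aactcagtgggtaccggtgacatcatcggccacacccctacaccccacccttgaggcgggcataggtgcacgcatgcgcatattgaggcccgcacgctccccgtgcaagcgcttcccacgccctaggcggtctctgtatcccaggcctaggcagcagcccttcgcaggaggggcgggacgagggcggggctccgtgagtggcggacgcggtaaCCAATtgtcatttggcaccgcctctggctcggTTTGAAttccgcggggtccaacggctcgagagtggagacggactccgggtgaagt
Kif11: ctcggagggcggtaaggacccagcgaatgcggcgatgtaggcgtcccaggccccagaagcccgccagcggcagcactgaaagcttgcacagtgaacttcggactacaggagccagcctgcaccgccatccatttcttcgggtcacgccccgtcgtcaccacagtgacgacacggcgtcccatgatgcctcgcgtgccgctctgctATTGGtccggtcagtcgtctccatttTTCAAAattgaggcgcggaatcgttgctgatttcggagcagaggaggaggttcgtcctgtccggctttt
Top2a: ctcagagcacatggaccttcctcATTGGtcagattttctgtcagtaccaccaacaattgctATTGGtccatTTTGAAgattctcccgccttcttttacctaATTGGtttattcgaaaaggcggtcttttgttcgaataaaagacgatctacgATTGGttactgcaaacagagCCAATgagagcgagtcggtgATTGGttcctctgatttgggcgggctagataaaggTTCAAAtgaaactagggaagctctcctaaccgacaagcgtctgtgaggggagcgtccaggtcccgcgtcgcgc
The Ccnb2 window held 3 CCAAT and 2 TTTGAA matches, that of Top2a 6 and 2, and those of Prc1 and Kif11 1 of each. Over the 42 called division genes with a promoter in the table, of 56, CCAAT was in 29 (69%) of windows, TTTGAA in 33 (78.6%) and both in 25 (59.5%). Over all 27025 windows the shares were 37.9%, 18.1% and 7.12%. A letter match is a description of these windows and not a mapped binding site.

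**Figure D1:**
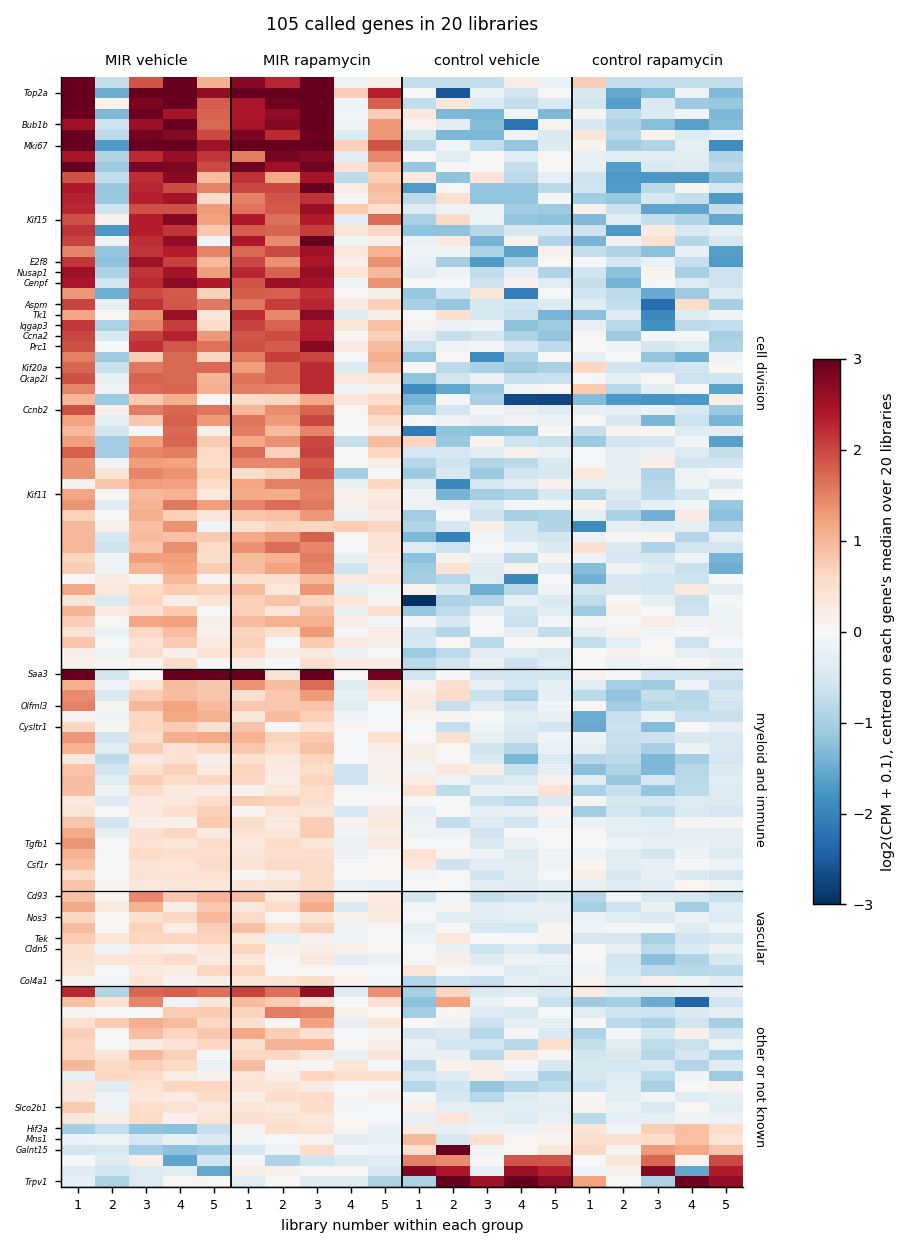
Level of each of the 105 called genes in each library, as log2(CPM + 0.1) relative to that gene's median over the 20 libraries and drawn up to 3 in either direction, with genes in rows grouped by role, labels on the genes that the naming rule picked, and libraries in columns, MIR vehicle and MIR rapamycin left of control vehicle and control rapamycin. The 99 higher genes are raised in most MIR columns, while MIR vehicle 2 and MIR rapamycin 4 look like the controls for most division and immune genes.

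Among the regulators of mitotic entry, Ccnb2, the cyclin B2 that activates the mitotic kinase Cdk1 (chr9:70407692-70421547, mm10), had 3.12, 0.878, 2.403, 2.75 and 2.50 CPM in MIR vehicle and 1.61, 2.22, 2.79, 0.793 and 1.43 CPM in MIR rapamycin libraries. It had 0.305, 0.480, 0.729, 0.641 and 0.560 CPM in control vehicle and 0.629, 0.605, 0.659, 0.517 and 0.295 CPM in control rapamycin libraries. All 10 MIR values lay above all 10 control values, with MIR rapamycin 4 and MIR vehicle 2 closest to the controls. The log2 fold change was 1.90 ± 0.25 (SE, n = 10 each, adjusted p = 0.0011, edgeR), and the call held under every alternative tried. Ccna2, cyclin A2, rose by 2.32 on the log2 scale and Cdk1 itself by 3.55, although Cdk1 averaged under 1 CPM. Foxm1, the transcription factor that drives many of these genes, rose by 1.59.

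The motors and microtubule proteins of the spindle rose as well. Prc1, which bundles the microtubules of the spindle midzone (chr7:80294450-80316259), had 3.36, 0.829, 4.08, 3.24 and 2.74 CPM in MIR vehicle and 3.36, 3.14, 5.96, 0.979 and 1.67 CPM in MIR rapamycin libraries. It had 0.479, 0.742, 0.772, 0.549 and 0.431 CPM in control vehicle and 0.800, 0.744, 0.527, 0.611 and 0.379 CPM in control rapamycin libraries. The groups again did not overlap, with the lowest MIR value at 0.829 CPM and the highest control value at 0.800 CPM, and the log2 fold change was 2.28 ± 0.31 (SE, adjusted p = 0.0011, edgeR). Prc1 overlaps Rccd1 on the opposite strand. Kif11, the motor that pushes spindle poles apart (chr19:37376403-37421859), ranged over 1.90 to 5.58 CPM with a median of 3.92 in MIR and over 0.655 to 1.90 CPM with a median of 1.16 in control libraries. Its separation was thin, with 1.902 CPM in MIR vehicle 2 against 1.895 CPM in control rapamycin 5, and its log2 fold change was 1.51 ± 0.22 (SE, adjusted p = 0.00174, edgeR). The kinesins Kif15 and Kif20a rose by 2.93 and 2.06, the spindle proteins Nusap1, Aspm and Ckap2l by 2.64, 2.49 and 2.04, and the cytokinesis-associated scaffold Iqgap3 by 2.42.

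Among called genes of at least 1 CPM, the largest fold changes were in genes of chromosome structure and of the spindle checkpoint. Top2a, the topoisomerase that untangles replicated chromosomes (chr11:98992943-99024189), had 15.0, 0.293, 13.5, 15.5 and 6.83 CPM in MIR vehicle and 15.6, 9.97, 17.1, 1.73 and 5.43 CPM in MIR rapamycin libraries. It had 1.00, 0.0873, 0.858, 0.641 and 0.990 CPM in control vehicle and 0.686, 0.279, 0.352, 0.894 and 0.337 CPM in control rapamycin libraries. Of the 10 MIR libraries, 9 exceeded every control, and MIR vehicle 2 lay within the control range. The log2 fold change was 4.06 ± 0.54 (SE, adjusted p = 0.0011, edgeR), and the call was lost under limma voom with sample weights, at 3.48 (adjusted p = 0.0637, in a range of 1.8e-10 to 0.0637 over the alternatives).

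Mki67, whose product Ki-67 coats mitotic chromosomes and is the usual marker of cycling cells (chr7:135689784-135716361), had 17.6, 0.439, 14.5, 19.0 and 10.01 CPM in MIR vehicle and 14.3, 13.9, 22.8, 2.75 and 6.33 CPM in MIR rapamycin libraries. It had 0.915, 1.53, 0.944, 0.687 and 1.21 CPM in control vehicle and 1.77, 0.744, 0.835, 1.32 and 0.379 CPM in control rapamycin libraries. The pattern over libraries was that of Top2a, high in 9 MIR libraries and below the median control in MIR vehicle 2, with a log2 fold change of 3.56 ± 0.47 (SE, adjusted p = 0.0011, edgeR). Bub1b, a kinase of that checkpoint, rose by 3.67, and Cenpf, a protein of the outer kinetochore, by 2.57. Leaving out MIR vehicle 2 raised the log2 fold change of Top2a to 4.22, the highest of the 20 leave-outs.

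**Figure D2:**
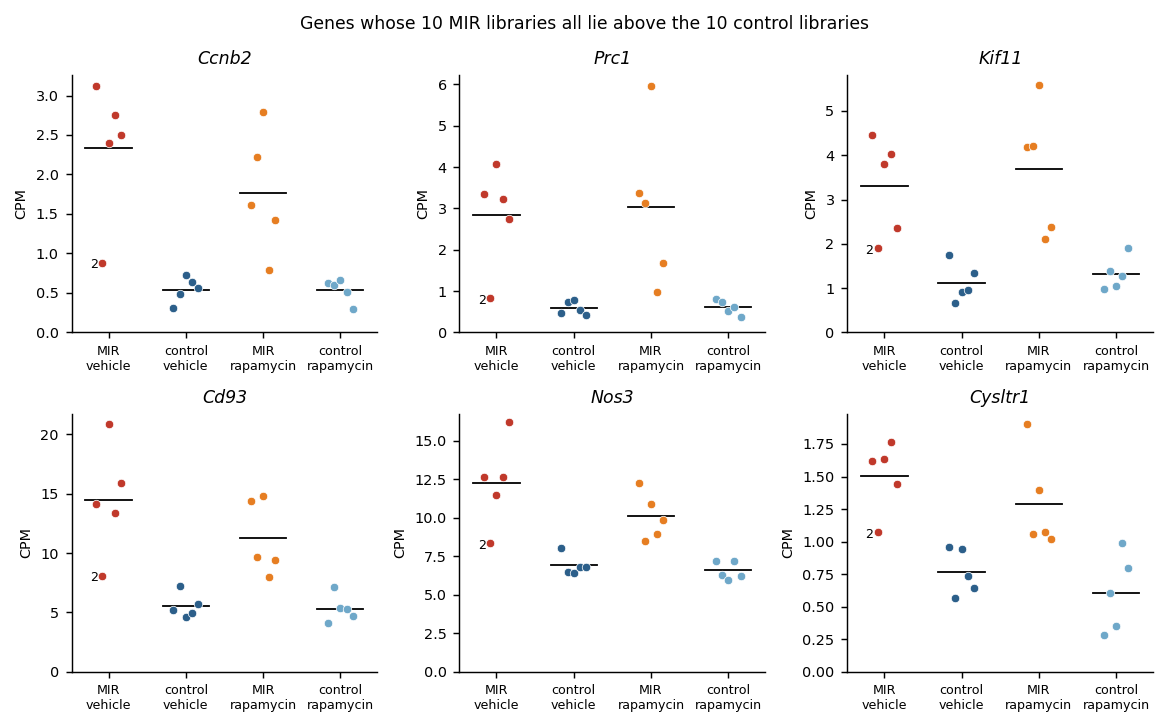
CPM of 6 called genes that average at least 1 CPM and whose 10 MIR values all lie above all 10 control values, one panel per gene, with 1 point per library and a line at each group mean, each MIR group left of its control group and MIR vehicle 2 marked by its number. The lowest MIR and the highest control values lie close together, at 8.02 and 7.25 CPM for Cd93, 0.793 and 0.729 CPM for Ccnb2, 0.829 and 0.800 CPM for Prc1 and 1.902 and 1.895 CPM for Kif11.

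Complete separation of the 10 MIR from the 10 control libraries was rare. It held upward for 8 genes (0.0462% of those tested) and downward for 2 (0.0116%). Upward they were Ccnb2, Prc1, Kif11, the kinetochore gene Ska3, the endothelial genes Cd93 and Nos3, the leukotriene receptor gene Cysltr1, and Slc40a1, which encodes the iron exporter ferroportin. Ska3 was at 1.24 and its call was lost without control vehicle 1 to 3, where it was again at 1.24. Slc40a1 was not called because its log2 fold change was 0.40 ± 0.07 (SE, adjusted p = 0.00822, edgeR), with 10.2 to 12.8 CPM in MIR and 7.07 to 10.1 CPM in control libraries. The 2 downward genes were not called either. Pole3, a histone-fold subunit of DNA polymerase epsilon, had 17.7 to 20.3 CPM in MIR and 21.1 to 24.9 CPM in control libraries, with a log2 fold change of -0.22 ± 0.05 (SE, adjusted p = 0.0317, edgeR). Erich3 had 17.8 to 26.6 CPM in MIR and 26.9 to 62.2 CPM in control libraries (-0.53 ± 0.13 SE, adjusted p = 0.0714, edgeR). Slc40a1, Pole3 and Erich3 were singled out after their values were seen.

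Of 27 listed mitosis genes, 23 were called higher and none lower, and their median log2 fold change was 2.06 against -0.01 over all tested genes. The 4 that were not called were Ccnb1 at 1.47, Cenpe at 1.08, Cdc20 at 0.73 and Anln, a scaffold of the cytokinetic ring, at -0.36. The count was 18 without control vehicle 1 to 3, 16 with the scores for striatum, cerebellum and choroid plexus as covariates, and 18 to 24 over the 20 single leave-outs. The list's score was 2.04, -0.38, 2.05, 2.20 and 1.50 in MIR vehicle and 1.92, 1.91, 2.43, 0.25 and 0.96 in MIR rapamycin libraries, against -0.57 to 0.03 over the controls. It exceeded every control in 9 of the 10 MIR libraries.

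**Figure D3:**
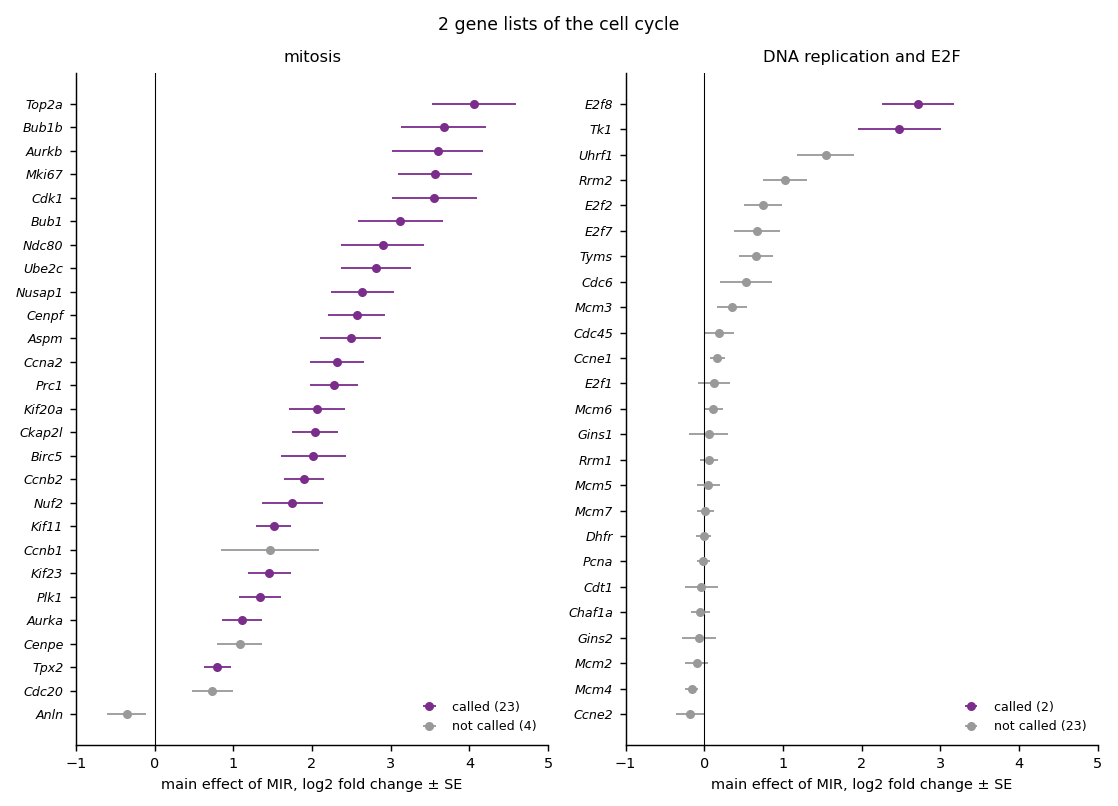
Log2 fold change of the main effect of MIR with its standard error for the 27 mitosis genes and the 25 genes of DNA replication and the E2F program, purple where called and grey where not. The mitosis genes lie mostly above 1, whereas most replication genes lie near 0, with E2f8 and Tk1 called.

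The genes of DNA replication and of the E2F program, which act earlier in the cycle, had 2 calls among 25 and a median of 0.12. The called pair were E2f8, a repressor that is itself induced in S phase, at 2.72 ± 0.46 (SE, adjusted p = 0.00562, edgeR), and Tk1, the thymidine kinase of S phase, at 2.48 ± 0.52 (SE, adjusted p = 0.0263, edgeR). E2f8 lost its call with the 3 region scores as covariates (adjusted p = 0.0798, in a range of 3.2e-06 to 0.0798 over the alternatives). Tk1 lost its call without any one of MIR vehicle 3, MIR vehicle 4, MIR rapamycin 1, MIR rapamycin 3, control vehicle 3, control vehicle 4 and control rapamycin 3, with an adjusted p of 0.0513 to 0.066. The list had 1 call in each of those 7 leave-outs and with the region scores, 4 without MIR vehicle 2, and 3 without control vehicle 1 to 3. Uhrf1, which copies DNA methylation at the fork, was at 1.54 and missed the threshold (adjusted p = 0.0504, edgeR) but was called at 2.00 without control vehicle 1 to 3, and Rrm2, a subunit of ribonucleotide reductase, was at 1.03 (adjusted p = 0.0985). The replicative helicase genes Mcm2 to Mcm7 lay between -0.16 and 0.35, and Pcna, the sliding clamp, at -0.01. Some called genes of DNA replication lay outside this list, among them Mcm10 at 1.48, Dbf4 at 0.74 and 2810417H13Rik (Pclaf) at 4.40. Of these, Dbf4 and 2810417H13Rik lost their calls without control vehicle 1 to 3. The count of calls for replication therefore depends on which genes were listed. Over the promoters of this list, CCAAT was in 14 of 20 (70%) and TTTGAA in 3 of 20 (15%), against 18 of 23 (78.3%) and 17 of 23 (73.9%) over the mitosis list.

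Markers of cells that could divide were read beside these counts. Of 10 tested markers of neural progenitors and neuroblasts none was called (edgeR; 3 at an unadjusted p under 0.05), and their median was 0.08, with Sox2 at 0.25 and Nes at 0.29. Of 10 markers of oligodendrocyte precursors none was called (edgeR; 2 at an unadjusted p under 0.05) and all were below 0, with a median of -0.20 and Pdgfra at -0.18. Microglial and endothelial markers are given next, and their part in the division genes was not tested.

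The myeloid genes rose by less. Olfml3, a secreted protein that marks microglia (chr3:103722222-103738001), had 31.4, 11.6, 21.8, 25.0 and 21.1 CPM in MIR vehicle and 19.0, 19.0, 19.7, 8.40 and 10.4 CPM in MIR rapamycin libraries. It had 13.1, 6.59, 8.58, 7.64 and 10.3 CPM in control vehicle and 11.4, 5.26, 5.93, 6.21 and 7.16 CPM in control rapamycin libraries. The groups overlapped through MIR vehicle 2, MIR rapamycin 4 and MIR rapamycin 5, and the log2 fold change was 1.18 ± 0.20 (SE, adjusted p = 0.00559, edgeR), a call held under every alternative. Csf1r, the receptor that keeps microglia alive, ranged over 82.0 to 160 CPM with a median of 114 in MIR and over 55.7 to 106 CPM with a median of 73.9 in control libraries, with a log2 fold change of 0.56 ± 0.12 (SE, adjusted p = 0.0371, edgeR). Its call held when MIR vehicle 2, MIR rapamycin 4, MIR rapamycin 5, control vehicle 1, control vehicle 2 or control rapamycin 1 was left out, and was lost without any one of the other 14 libraries, with an adjusted p of up to 0.0861.

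Other called immune genes included receptors for antibody (Fcgr1 at 1.21 and Fcgr3 at 0.65), the leukotriene receptor gene Cysltr1 at 1.02, the G-CSF receptor gene Csf3r at 0.92, the TNF receptor gene Tnfrsf1b at 0.64 and the lysosomal proteases Ctsh and Ctsc at 1.00 and 0.85. Of these, Fcgr3 and Tnfrsf1b lost their calls without control vehicle 1 to 3, at 0.63 and 0.54. Cysltr1 ranged over 1.02 to 1.90 CPM in MIR and 0.286 to 0.988 CPM in control libraries, without overlap, and its call was lost without MIR rapamycin 1 (adjusted p = 0.0537, in a range of 0.00035 to 0.0537 over the alternatives). Tgfb1, a cytokine that maintains microglial identity, was at 0.60 (adjusted p = 0.0452, edgeR) and kept its call in 5 of the 20 leave-outs, those without MIR vehicle 2, MIR rapamycin 4, control vehicle 1, control vehicle 2 or control rapamycin 1. Tgfb1 also lost it without control vehicle 1 to 3 (adjusted p = 0.116, in a range of 0.00404 to 0.144 over the alternatives). In the list of 18 microglial markers, 2 were called, 17 were above 0 and the median was 0.45. At an unadjusted p under 0.05 (edgeR), 12 were above 0 and none below. The list's score exceeded every control in 6 of the 10 MIR libraries. The number of calls was 3 without control vehicle 1 to 3 and 7 with limma voom. Over single leave-outs it was 5 without MIR vehicle 2, 4 without control vehicle 1, 3 without MIR rapamycin 4 or control vehicle 2, 2 without MIR rapamycin 5, control rapamycin 1 or control rapamycin 4, and 1 without any one of the other 13 libraries. Within this list, P2ry12, Tmem119 and P2ry13 were at 0.30, 0.19 and -0.17 and none was called, with P2ry13 the member below 0. They do not stand for the list, in which 17 of 18 were above 0. Of 11 tested markers of activated microglia none was called (edgeR; 3 below 0 at an unadjusted p under 0.05). Their median was -0.16, and 0.09 without control vehicle 1 to 3. Of 9 tested markers of border macrophages none was called (edgeR; 1 above 0 at an unadjusted p under 0.05). Their median was -0.17, and 0.01 without control vehicle 1 to 3. Of 9 markers of blood leukocytes only Ptprc and S100a9 were abundant enough to test, at 0.63 and 1.02, neither called with all libraries. Ptprc, the pan-leukocyte gene for CD45 that microglia also express, was called at 0.82 without control vehicle 1 to 3. The T cell genes Cd3e and Cd3g and the B cell gene Cd79a were below the filter.

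Saa3, an acute-phase serum amyloid A expressed outside the liver, had the largest contrast of the immune calls and the most uneven one. It had 3.07, 0, 0.0453, 1.52 and 6.69 CPM in MIR vehicle and 1.75, 0.0923, 3.36, 0.0466 and 0.980 CPM in MIR rapamycin libraries, and 0 to 0.0571 CPM over the controls. In all, 357 reads came from MIR and 3 from control libraries, a ratio of 125 with a 95% interval of 42.5 to 610 that covers counting error only. Of the MIR libraries 6 had more than 3 reads, and 7 of the control libraries had none. Its call was lost without control vehicle 1 to 3 (adjusted p = 0.06, in a range of 4.9e-06 to 0.062 over the alternatives).

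Endothelial genes formed the third group. Cd93, a membrane receptor found on endothelium and on myeloid cells (chr2:148436640-148443563), had 14.2, 8.09, 20.9, 13.4 and 15.9 CPM in MIR vehicle and 14.4, 9.65, 14.9, 8.02 and 9.39 CPM in MIR rapamycin libraries. It had 5.18, 7.25, 4.63, 4.99 and 5.73 CPM in control vehicle and 4.11, 7.16, 5.41, 5.27 and 4.68 CPM in control rapamycin libraries. All MIR values exceeded all control values, and the log2 fold change was 1.23 ± 0.16 (SE, adjusted p = 0.0011, edgeR). Nos3, the endothelial nitric oxide synthase (chr5:24364810-24384474), had 12.6, 8.34, 11.5, 12.7 and 16.2 CPM in MIR vehicle and 12.2, 8.49, 10.9, 8.91 and 9.84 CPM in MIR rapamycin libraries. It had 8.01, 6.46, 6.44, 6.77 and 6.80 CPM in control vehicle and 7.20, 6.28, 5.98, 7.20 and 6.19 CPM in control rapamycin libraries. The gap was narrow, at 8.34 CPM in MIR vehicle 2 against 8.01 CPM in control vehicle 1, with a log2 fold change of 0.72 ± 0.10 (SE, adjusted p = 0.00168, edgeR), and Nos3 overlaps Atg9b on the opposite strand.

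Tek and Tie1, the paired receptors of the angiopoietin system, rose by 0.60 and 0.58, Cldn5, the main claudin of the blood-brain barrier, by 0.59 and Col4a1, a collagen of the vascular basement membrane, by 0.55. Tie1 lost its call without control vehicle 1 to 3, at 0.62. Cldn5 lost its call with the 3 region scores as covariates (adjusted p = 0.0556, in a range of 0.00022 to 0.0556), and Col4a1 lost it there and without control vehicle 1 to 3, at 0.41 and 0.44 (adjusted p = 0.176 and 0.06, in a range of 3.6e-05 to 0.176). In the list of 19 endothelial markers, 5 were called, 18 were above 0 and the median was 0.32. At an unadjusted p under 0.05 (edgeR), 15 were above 0 and 1 below. The list's score exceeded every control in 8 of the 10 MIR libraries, with 0.08 to 0.45 in MIR vehicle and -0.04 to 0.38 in MIR rapamycin against -0.36 to 0.02 in the controls. Mfsd2a, the lipid transporter of the barrier, was the member below 0, at -0.35 and not called. Of 10 tested genes of endothelial sprouting, Col4a1 was the 1 call with all libraries, and of 11 markers of pericytes and smooth muscle none was called.

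**Figure D4:**
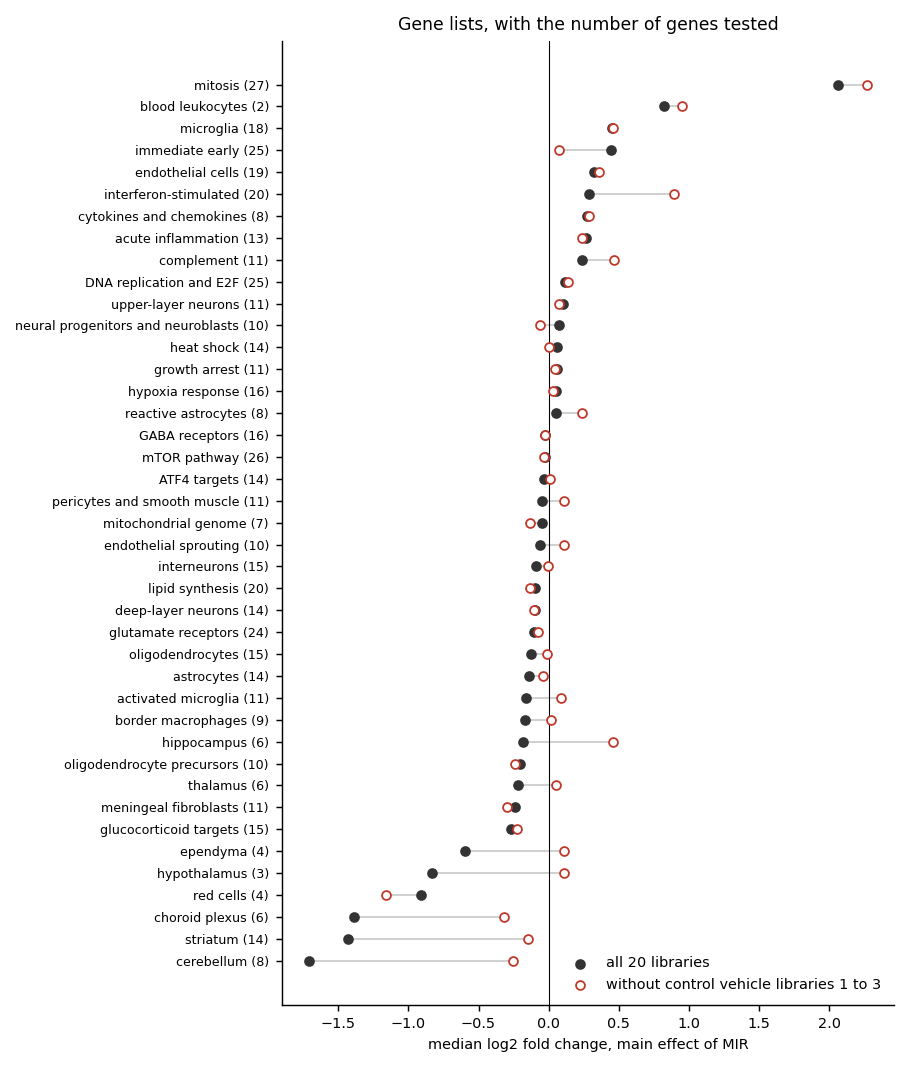
Median log2 fold change of each gene list, for the main effect with all 20 libraries (filled) and without control vehicle 1 to 3 (open), with the number of members tested in brackets. The mitosis list stands at 2.06 and 2.27, while the lists for striatum, cerebellum and choroid plexus move from values below -1 with all libraries to near 0 without the 3 libraries.

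The MIR libraries were not alike. Of the 56 called division genes, MIR vehicle 1, MIR vehicle 4, MIR rapamycin 1 and MIR rapamycin 3 exceeded every control for all 56, MIR vehicle 3 for 55, MIR rapamycin 2 for 54, MIR vehicle 5 for 49 and MIR rapamycin 5 for 43. MIR rapamycin 4 did so for 22 and MIR vehicle 2 for 7, with 48 of its values inside the control range. The immune calls followed the same order at its low end, with 2 of 21 above every control in MIR vehicle 2, 2 in MIR rapamycin 4 and 9 in MIR rapamycin 5, against 16 to 21 in the other libraries. The vascular calls showed less of it, with 5 of 9 in MIR vehicle 2, 3 in MIR rapamycin 4 and 4 in MIR rapamycin 5 against 6 to 9 in the others. These counts describe calls that were made from the same libraries.

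The effect of MIR under each treatment could be set side by side because the vehicle and the rapamycin comparison share no library. They do share the estimate of the spread and the scaling, and they may share dams, so they are not fully independent. Of the 105 called genes, all had the same sign under rapamycin and under vehicle, 102 had an unadjusted p under 0.05 under rapamycin, 100 under vehicle and 97 under both. Being called in the average favours genes that changed alike under both treatments, so these counts are a description. The division genes had a median of 2.11 under rapamycin and 2.10 under vehicle, the immune genes 1.02 under rapamycin and 0.68 under vehicle, and the vascular genes 0.63 under rapamycin and 0.71 under vehicle. Over all tested genes, 2826 had a p under 0.05 under vehicle, and 1470 of these (52.0%) had the same sign under rapamycin, 238 (8.42%) with a p under 0.05 there too.

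Each treatment alone gave few calls. Under vehicle 17 genes were called (0.0982%), 11 of them among the 105. Under rapamycin 0 were called (0% by edgeR's quasi-likelihood test), while 1745 genes (10.1%) had an unadjusted p under 0.05, DESeq2 called 88 and limma voom 119. The genes with the smallest p under rapamycin were Top2a at 4.29, Mki67 at 3.59, Prc1 at 2.30 and Bub1b at 4.20, all with an adjusted p of 0.10. Under vehicle the number of calls was 0 without control vehicle 1 to 3 and 0 to 226 over the single leave-outs. Under rapamycin it was 31 without those 3 libraries, and 35 without MIR vehicle 2 or without MIR rapamycin 4.

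**Figure D5:**
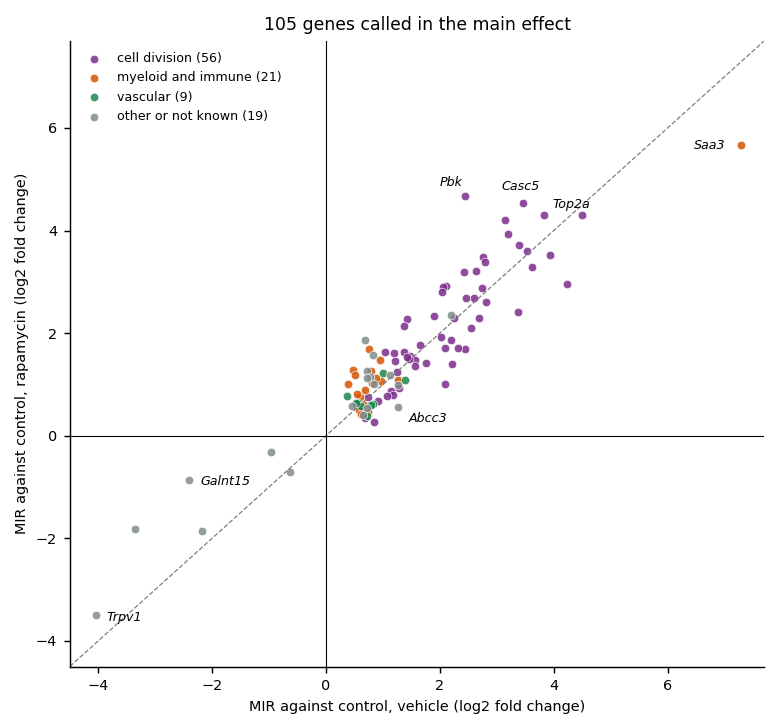
Log2 fold change of MIR against control under rapamycin on the vertical axis and under vehicle on the horizontal axis for the 105 called genes, coloured by role, with a dashed line of equal change. All genes lie in the upper right and lower left quadrants, the division genes at a median of 2.11 under rapamycin and 2.10 under vehicle.

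Whether the effect of MIR differed between treatments was tested directly as an interaction. No gene was called (0% of those tested by edgeR's quasi-likelihood test), 2200 (12.7%) had an unadjusted p under 0.05, DESeq2 called 63 and edgeR's likelihood ratio test 11. Of the 105 called genes, 4 (3.81%) had an interaction p under 0.05. The smallest p-values over all genes belonged to Zfpm1, a cofactor of GATA factors, at -1.06, Fstl4 at -1.11, Sntb1, a syntrophin, at 1.20 and Jdp2, a repressor of the AP-1 family, at -1.43, all with an adjusted p of 0.318. Zfpm1 was the 1 gene called without control vehicle 5 (adjusted p = 0.00415, in a range of 0.00415 to 1.00 over the alternatives).

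The 6 lower genes had no role in common. Trpv1, the capsaicin receptor of sensory neurons (chr11:73234292-73261242), had 0 to 0.0982 CPM in the MIR libraries. It had 0, 1.57, 1.03, 1.60 and 1.16 CPM in control vehicle and 0.343, 0.0931, 0, 1.36 and 1.10 CPM in control rapamycin libraries. The controls were split, with 6 of 10 above 1 CPM and 2 at 0, and the log2 fold change was -3.78 ± 0.73 (SE, adjusted p = 0.0143, edgeR). The call held under every alternative in which the gene was tested. The predicted genes Gm10020 and Gm10224 fell by 2.02 and 2.58 on the log2 scale.

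Galnt15, a transferase that starts mucin-type sugar chains (chr14:32028989-32062197), had 3.53, 3.71, 2.49, 2.16 and 2.36 CPM in MIR vehicle and 3.61, 4.75, 7.83, 5.04 and 4.86 CPM in MIR rapamycin libraries. It had 7.49, 50.5, 4.89, 5.40 and 6.72 CPM in control vehicle and 8.12, 5.54, 12.7, 11.6 and 9.52 CPM in control rapamycin libraries. Control vehicle 2 was far above the rest. The log2 fold change was -1.63 ± 0.37 (SE, adjusted p = 0.0443, edgeR) and -0.98 (adjusted p = 0.0242) without control vehicle 1 to 3, and the call was lost in 13 of the 20 single leave-outs, with an adjusted p of up to 0.0999. It held without MIR vehicle 2, any one control vehicle library or control rapamycin 2.

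Hif3a, a hypoxia-inducible factor that is also induced by glucocorticoids, was at -0.64 ± 0.13 (SE, adjusted p = 0.0175, edgeR). It had 10.7 to 17.6 CPM in MIR rapamycin against 11.6 to 23.0 CPM in control rapamycin libraries, with overlap, and 5.10 to 7.61 CPM in MIR vehicle against 10.4 to 14.7 CPM in control vehicle libraries, without overlap. Its log2 fold change was -0.33 under rapamycin and -0.96 under vehicle, with an unadjusted interaction p of 0.0215 and no call there. Mns1, a gene of motile cilia and sperm flagella, was at -0.66 ± 0.15 (SE, adjusted p = 0.0353, edgeR), and its call was lost in 12 of the 20 single leave-outs (adjusted p of up to 0.0827). It held without MIR vehicle 2, control vehicle 1, 2, 4 or 5, or control rapamycin 1, 2 or 5.

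In the list of 15 glucocorticoid targets, Hif3a was the call, 13 members were below 0 and the median was -0.27. At an unadjusted p under 0.05 (edgeR), 8 were below 0 and none above. Plin4, a lipid droplet protein, was at -1.09 (adjusted p = 0.0751) and was called at -1.03 without control vehicle 1 to 3 (adjusted p = 0.0417, in a range of 0.00537 to 0.145 over the alternatives). Tsc22d3 and Mt2, both classic glucocorticoid-induced genes, were at -0.35 and -0.32, and Fkbp5 and Per1 at -0.19 and 0.14, none called. Of 4 tested red cell genes none was called (edgeR; 4 below 0 at an unadjusted p under 0.05) and the median was -0.91. Hba-a1, alpha globin, was called at -1.42 without control vehicle 1 to 3 (adjusted p = 0.0437, in a range of 0.0199 to 0.246). Prl, Igkc and Myoc were also called lower in that fit, with Prl at 0 to 0.829 CPM in MIR and 0 to 17.3 CPM in control libraries.

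Interferon-stimulated genes depended on 1 control library. Irf7, the interferon-induced factor that amplifies the response, had 7.41, 1.66, 5.40, 6.68 and 6.11 CPM in MIR vehicle and 5.12, 1.94, 4.81, 3.54 and 4.37 CPM in MIR rapamycin libraries. It had 1.79, 17.5, 2.15, 0.824 and 1.03 CPM in control vehicle and 1.26, 0.512, 0.967, 0.988 and 0.505 CPM in control rapamycin libraries. Control vehicle 2 had the highest value of all, and with it the log2 fold change was 1.23 (adjusted p = 0.277, edgeR). Without control vehicle 2 it was 2.07 (adjusted p = 0.00143), and without control vehicle 1 to 3 it was 2.39 (adjusted p = 0.00913), in a range of 0.00143 to 0.406 over the alternatives.

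Isg15 and Ifi44 behaved alike, at 0.99 and 1.52 with all libraries, not called, and at 1.57 (adjusted p = 0.0192) and 2.64 (adjusted p = 0.0195) without control vehicle 2. Over the alternatives the adjusted p of Isg15 ran from 0.0175 to 0.46 and that of Ifi44 from 0.0195 to 0.584. Of the 20 listed interferon-stimulated genes, 0 were called by edgeR with all libraries (2 at an unadjusted p under 0.05) or by DESeq2, 8 by limma voom with sample weights, 4 without control vehicle 2 and 3 without control vehicle 1 to 3. The median was 0.28 with all libraries, 1.04 under rapamycin and -0.36 under vehicle, and 0.89 without control vehicle 1 to 3. Control vehicle 2 is also the library with cerebellar markers, and the part of those markers in its interferon genes was not tested.

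Lists of inflammation in the narrower sense held few calls. Of 20 cytokine and chemokine genes 8 were abundant enough to test and Tgfb1 was the call, with a median of 0.28 and no call without control vehicle 1 to 3. Of 13 genes of acute inflammation Saa3 was the call, with a median of 0.26 and again no call without control vehicle 1 to 3. Lcn2, another acute-phase gene, was above 0 and not called. Nfkbia, the inhibitor of NF-kappaB, was below 0 and not called. Of 11 tested complement genes none was called (edgeR; 4 at an unadjusted p under 0.05) and the median was 0.24 with all libraries. Without control vehicle 1 to 3 the median was 0.47, and C1qc, a chain of the initiating complement protein C1q, was called at 0.94 (adjusted p = 0.0242, in a range of 0.00642 to 0.14 over the alternatives).

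The study also named genes from these samples, so their counts are not independent evidence. Those counted here come from its main table of transcription factors, neurotransmitter genes and ion channels in MIR against control offspring. That table states a higher fold threshold and a less strict adjusted p than those used here. It also states more mice per group and treatment than the 5 libraries per group here. Trpc6 and Asic4 appear in it both as higher and as lower. The table's directions for them therefore conflict. That table does not name a treatment, whereas the main effect here averages both. Of 12 tested genes named there as higher, E2f8 and Slco2b1 were called, and of 26 named there as lower, Trpv1 was called. Outside these counts, the study's supplementary list of autism genes higher in MIR holds Tek, Aspm, Iqgap3 and Kif14. These were called higher here, at 0.60, 2.49, 2.42 and 1.55, and Kif14 lost its call without control vehicle 1 to 3. Plaur, Id1, Homer1, Cdkn1a and Mast3 on that list were not called. Slco2b1, an organic anion transporter, was at 0.52 and lost its call in 15 of 30 alternatives, with an adjusted p of 0.00275 to 0.0861. The median of the genes named as lower was -0.75 with all libraries and -0.20 without control vehicle 1 to 3. Of these 26, 18 were below 0 at an unadjusted p under 0.05 (edgeR). Their median was -1.31 under vehicle and -0.13 under rapamycin. For the genes named as higher it was 0.66 under vehicle and -0.05 under rapamycin.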

How the data were processed

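Reads were aligned with STAR 2.4.0 to mm10 and counted per gene with HTSeq 0.6.1, per the labels. The authors deposited raw counts for 20 libraries of a stranded poly(A) kit. The study's methods state that sequencing outliers were removed on quality control, without naming them, and elsewhere that outlier animals were kept. Why fewer libraries than mice were present is not given. The sources used here do not give the strand setting of the counting, and 42 of the 105 called genes overlap a gene on the other strand (GENCODE M21). Counts were tested with edgeR 4.0.16 (R 4.3.3): filterByExpr (minimum count 10, minimum total 15), TMM scaling, 4 group means and the quasi-likelihood test with Benjamini-Hochberg adjustment over 17313 genes, called at an adjusted p under 0.05 and an absolute log2 fold change over 0.5. The standard error is the log2 fold change divided by the root of F. CPM are counts scaled to TMM-adjusted library totals, and list scores used log2 CPM with a prior count of 2. Every pair of libraries within a group differed by more than counting noise (chi-square over its degrees of freedom at least 5.52).

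The text names the 12 strongest rises and up to 12 strongest falls among calls that average 1 CPM or more and carry a readable symbol (no clone, RIKEN or predicted names), 8 of each for the fit without control vehicle 1 to 3, the 10 called genes of smallest p whose MIR and control libraries did not overlap, the 4 of smallest p in the interaction and under each treatment, and up to 4 per described list. Further called genes and list members were named after their values were seen, to complete a role. Some genes are not reported here. The comparison, the named-gene rule and the 44 gene lists were chosen with earlier results of these data known. Alternatives were DESeq2 1.42.0, limma 3.58.1 (voom with sample weights), edgeR's likelihood ratio test, DESeq2-type size factors, 2 other low-count filters, no fold criterion, 3 region scores as covariates, a replicate block, and leaving out control vehicle 1 to 3 together or each library alone. Promoters came from RefSeq (GRCm38.p6), using the first listed window of 300 bases.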

Additional observations from a re-analysis of the deposited data

Results flagged for a closer look

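Of 220 groups of 5 libraries examined for a value far from the other 4, 22 held one. Chance gives about 1 in 20 for independent groups. These groups reuse the same libraries for genes and lists that vary together, so the count cannot be compared with that rate. MIR vehicle 2 was far below the other MIR vehicle libraries for Top2a (0.293 CPM), Mki67 (0.439 CPM), Cenpf (0.585 CPM), Aspm (0.488 CPM), Prc1 (0.829 CPM), Kif20a (0.341 CPM) and Ccnb2 (0.878 CPM), and for the mitosis score (-0.385). Kif15 was far below the rest in MIR rapamycin 4 (0.326 CPM). In MIR rapamycin, Prl was far above the rest in library 2 (0.369 CPM) and Zfpm1 far below in library 5 (46.1 CPM).

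Among the controls, control vehicle 2 was far above the rest for Galnt15 (50.5 CPM), for Igkc, an immunoglobulin light chain gene (162 CPM), and for the scores of interferon-stimulated genes (2.4), DNA replication (0.205) and endothelial sprouting (0.285). It was far below the rest for Top2a (0.0873 CPM) and for the score of GABA receptors (-0.534). Control vehicle 1 was far below the rest for Myoc (0.0871 CPM) and far above for Nos3 (8.01 CPM). In control rapamycin, Mns1 was far above the rest in library 4 (7.85 CPM) and Zfpm1 in library 1 (87.6 CPM).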

How the results depend on the processing

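The number of genes higher in MIR (99) was 174 with DESeq2, 173 with edgeR's likelihood ratio test, 300 with limma voom and 45 among genes of at least 1 CPM, and that of genes lower (6) was 49, 57, 54 and 1 in the same order, 11 with no fold criterion and 14 without control vehicle 1 to 3. Under vehicle (17 calls) there were 391 with DESeq2, 419 with the likelihood ratio test, 63 with no low-count filter, 7 at 1 CPM or more, and 0 without control vehicle 1 to 3 or with region covariates. Under rapamycin (0 calls) there were 88, 90 and 119 with DESeq2, the likelihood ratio test and voom and 31 without control vehicle 1 to 3, and for the interaction (0 calls) 63 with DESeq2 and 11 with the likelihood ratio test. Leaving out 1 library gave 60 to 161 higher, 4 to 22 lower, 0 to 226 under vehicle, 0 to 35 under rapamycin and 0 to 1 for the interaction. The causes were not tested.

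With the replicate number as a block there were 78 genes higher, 2 lower, and 0 under vehicle, and among the named genes of the main effect Hif3a, Mns1, Galnt15 and Tk1 lost their calls. Same-numbered libraries of different groups correlated at -0.145 to 0.204 (mean 0.0045, 4 of 30 over 0.1). Those with different numbers correlated at -0.208 to 0.273 (mean -0.00093, 13 of 120 over 0.1). The numbers were therefore not used as pairs, and whether libraries share a batch or a litter was not tested. Over the named genes, 982 values under other alternatives kept direction and side of the threshold, 77 passed it newly, 38 lost it and 6 changed sign, all of uncalled genes: with region covariates Hif1a 0.0068, Pax6 0.093 and Cnp 0.020, with voom Gabrd 0.072 and Grm4 0.067, and without control vehicle 1 to 3 Gabrd 0.011. Genes that average under 1 CPM rest on fewer than 25 reads per library on average at this depth, though single libraries can hold more. Folds below 0.5 were not called by design.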

Other observations

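Further gene lists had few or no calls in the main effect. Of 25 immediate early genes, which neurons switch on with activity, none was called (edgeR; 8 at an unadjusted p under 0.05, against 2288 of all 17313 tested genes). Their median log2 fold change was 0.45 over all libraries, -0.16 under rapamycin, 1.01 under vehicle and 0.07 without control vehicle 1 to 3. Homer1, a synaptic scaffold with an activity-induced short form, was at 0.77 and Bdnf, a neurotrophin, at 0.82, neither called. Of 26 genes of the mTOR pathway, 24 glutamate receptor genes, 16 GABA receptor genes and 14 targets of ATF4 none was called, with medians of -0.03, -0.10, -0.03 and -0.03. Ddit4, a stress-induced inhibitor of mTOR signalling, was at -0.49 and not called.

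Of 15 oligodendrocyte genes none was called and the median was -0.13, with the myelin gene Mbp at -0.32. The tested markers of cerebellum, striatum and choroid plexus were below 0 with all libraries, at medians of -1.71 for cerebellum, -1.43 for striatum and -1.39 for choroid plexus, and lay at -0.25, -0.15 and -0.32 without control vehicle 1 to 3, with no call in either comparison for these 3 lists.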
